A study of Mus musculus with 36 samples.

Results

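The 10 genes described here mark hepatic stellate cells, the vitamin A storing cells of the liver, or the myofibroblasts that these cells can become: Lrat, Reln, Des, Pdgfra, Pdgfrb, Acta2, Tagln, Vim, Tgfb1 and Lum. Each was found by its symbol on 1 of the 49315 rows of the deposited table. All 10 passed the filter of at least 1 TPM (a transcript level corrected for gene length and scaled to the same total in each library) in at least 4 libraries, which left 16638 genes for testing. PolyA RNA was sequenced from livers of male mice aged 11 to 12 weeks, 36 libraries in 9 groups of 4. The mice differ in whether their liver X receptor alpha (LXRalpha, which binds oxysterols in the nucleus) holds tryptophan (W) at residue 441 or phenylalanine (F) placed there by genome editing. W/W mice are homozygous controls, W/F heterozygous and F/F homozygous mutants, and the labels name no promoter or cell type that restricts the change. Each genotype was studied on normal chow, on a high fat, high cholesterol diet that promotes metabolic steatohepatitis (MASH) with vehicle, and on that diet with the LXR agonist T0901317. The MASH diet (Teklad TD.96121) lasted 4 weeks, and vehicle or T0901317 at 10 mg/kg was given by gavage each day during the last 2 weeks. In what follows, vehicle and T0901317 groups are always on the MASH diet. The chow mice were a separate cohort for which no gavage is listed, so diet, gavage and cohort cannot be told apart.

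In a healthy liver stellate cells lie between hepatocytes and the sinusoids in a quiescent state, hold retinyl esters in lipid droplets, and carry PDGF receptors and the intermediate filament desmin. After injury they lose these droplets, take up a contractile smooth muscle programme, divide in response to PDGF and lay down matrix under the influence of TGF-beta. Below, Lrat, which makes retinyl esters, and Reln, a secreted glycoprotein, are taken for the quiescent state. Acta2, Tagln and Vim are taken for the activated one. This division was not tested here.

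Read numbers recovered from the TPM put the depth at 18.0 to 35.8 (in units of 1000000 reads) per library, and the member with the fewest reads, Tagln, had 18 in its lowest library. Hepatocyte identity was clear: 12 hepatocyte markers together held 41707 to 119721 TPM in the 36 libraries. Nr1h3, the gene of LXRalpha, lay between 79.1 and 124 TPM in every library, and an exchanged residue cannot be seen in such values. The median gene itself differed between groups. On vehicle, F/F against W/W, the median gene tested had a log2 fold change of 0.70 in the TPM as deposited and 0.14 after each library was divided by the median of its ratios to a common reference, so a fold change after this rescaling is given beside each main result. W/F T0901317 replicate 2 and W/W T0901317 replicate 2 stood apart from the other 3 libraries of their groups in several members, and results that rest on them are given with and without them. A gene is said to be called, to rise or to fall where the adjusted p from limma was under 0.05. Each background, the share of all genes called, is from the TPM as deposited. Counts of members called after rescaling therefore stand without a background. In bulk RNA, fewer cells of a type and less RNA per cell cannot be told apart.

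**Figure D1:**
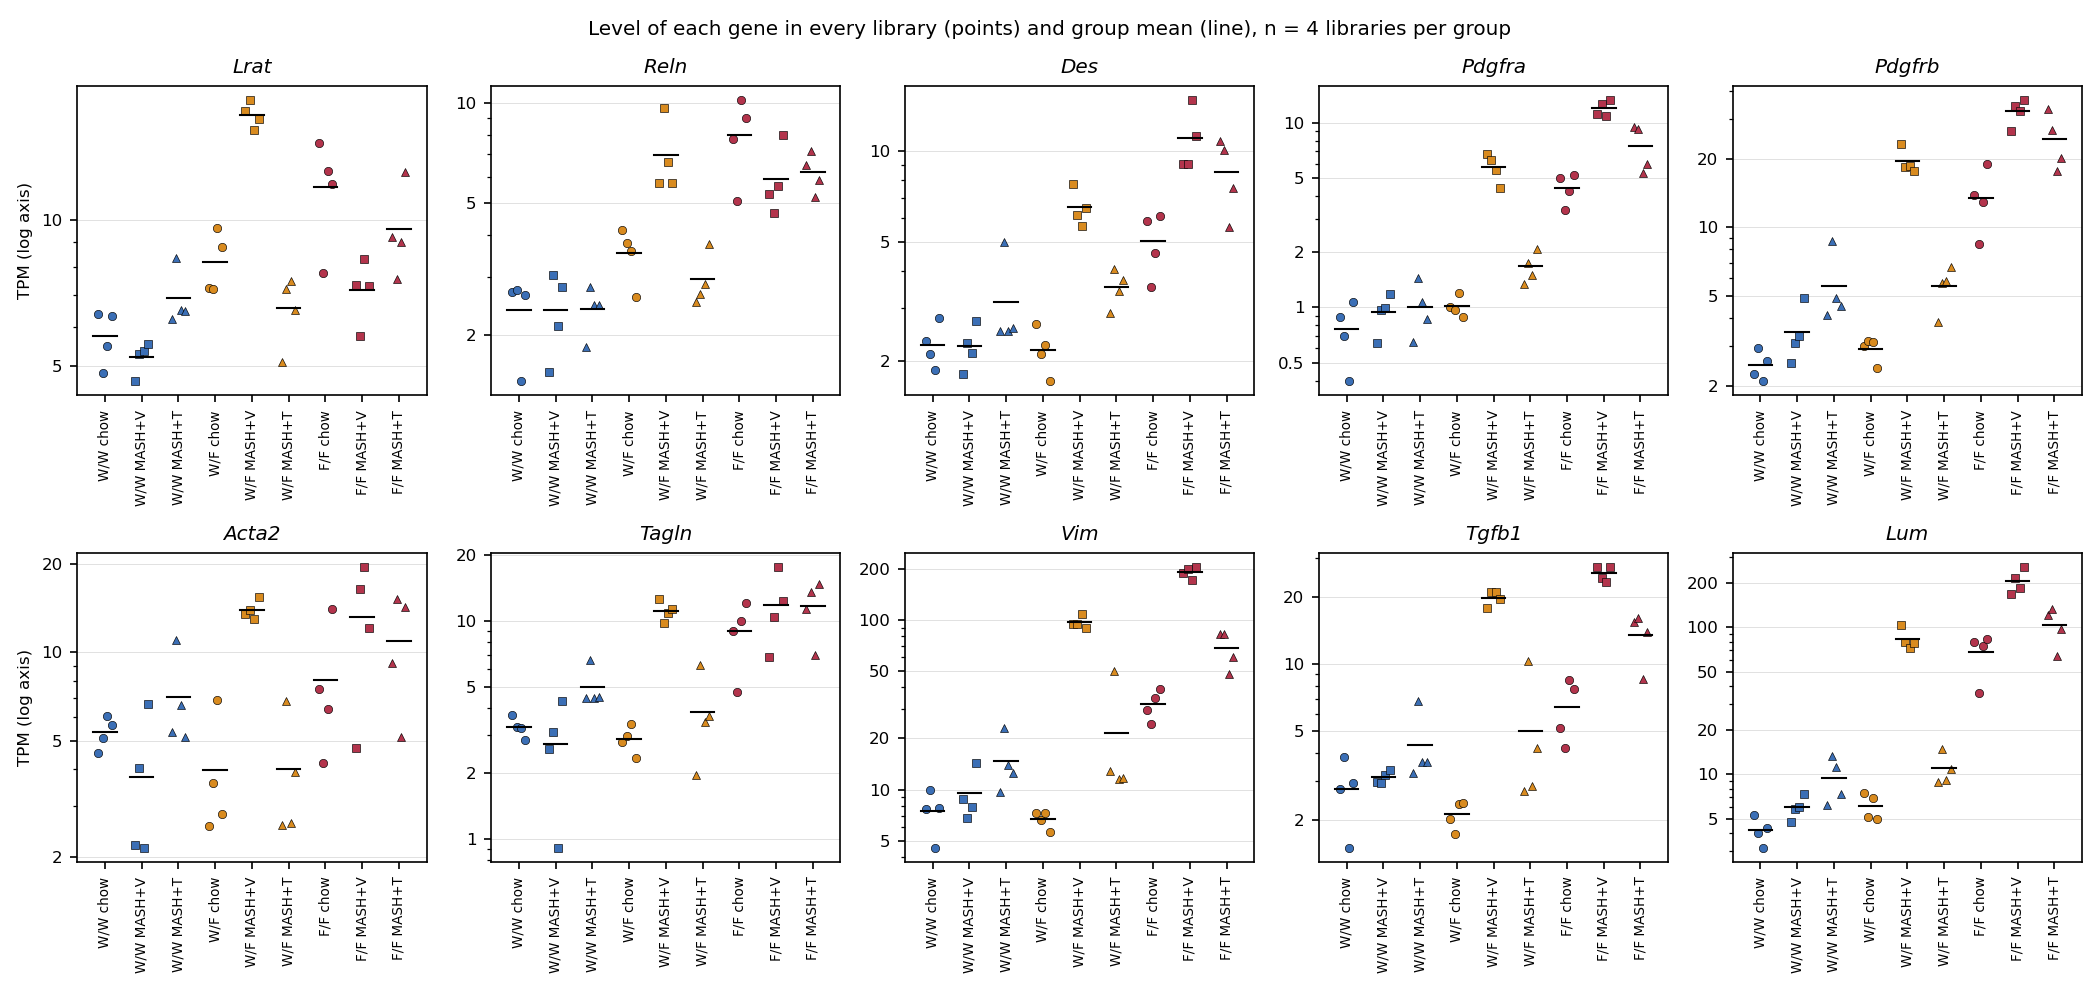
Level of each of the 10 genes in TPM (log axis) in every library, by genotype and treatment (V, vehicle; T, T0901317), with the mean of 4 libraries as a line. Lrat is highest in W/F on vehicle at a mean of 16.4 TPM, whereas Vim and Lum are highest in F/F on vehicle at 192 and 207 TPM.

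Lrat encodes lecithin retinol acyltransferase, which esterifies retinol for storage, and Reln encodes reelin. In GENCODE M21 (GRCm38) Lrat spans chr3:82892579-82903973 and Reln chr5:21884454-22344702, both on the minus strand, and RefSeq places their starts just beyond the upper end of each span. The 250 bases before each start are shown to let the upstream sequence be read beside the levels. Those before Pdgfra, on the plus strand, are shown for a member outside the quiescent pair. Capitals mark GGGCGG (an Sp1-type GC box), TATAAA or the E-box CANNTG, on either strand, and no match overlaps another.
Lrat, chr3:82903975-82904224: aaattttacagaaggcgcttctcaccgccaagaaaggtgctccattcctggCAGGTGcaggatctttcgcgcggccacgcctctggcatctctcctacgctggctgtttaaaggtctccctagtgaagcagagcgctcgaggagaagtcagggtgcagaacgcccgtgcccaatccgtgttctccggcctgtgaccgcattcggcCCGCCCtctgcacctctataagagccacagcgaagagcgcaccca
Reln, chr5:22344706-22344955: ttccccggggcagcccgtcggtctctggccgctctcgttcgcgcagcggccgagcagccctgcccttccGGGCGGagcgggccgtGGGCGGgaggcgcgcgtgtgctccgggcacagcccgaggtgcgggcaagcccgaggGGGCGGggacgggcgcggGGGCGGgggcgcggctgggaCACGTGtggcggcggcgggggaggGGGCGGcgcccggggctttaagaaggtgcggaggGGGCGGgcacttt
Pdgfra, chr5:75152001-75152250: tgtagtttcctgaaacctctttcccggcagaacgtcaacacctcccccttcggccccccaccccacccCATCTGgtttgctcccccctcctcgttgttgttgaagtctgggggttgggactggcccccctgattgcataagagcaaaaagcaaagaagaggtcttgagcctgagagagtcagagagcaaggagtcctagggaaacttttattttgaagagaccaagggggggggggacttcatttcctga
Lrat has 1 GC box at -45 to -40 and 1 E-box at -199 to -194 from its start. Reln has 6 GC boxes, the nearest at -13 to -8, and 1 E-box. Pdgfra has 1 E-box and no GC box. Of 27025 mouse promoter windows of this length, 32.9% hold GGGCGG, 66.0% an E-box and 12.97% TATAAA. The CArG box, the serum response element found before many smooth muscle genes, was searched only as CC, then 6 bases of A or T, then GG. Forms with a mismatch were not searched. Neither this strict form (1.40% of windows) nor AGGTCA, the hexamer in LXR response elements (13.8% of windows), is in the 7 member windows read from RefSeq. Windows were read for 7 of the 10 members. In those of Acta2 and Vim, 217 and 250 of the 250 bases are annotated transcribed sequence, so they are not shown. They cannot tell whether a match lies further upstream of these genes.

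Lrat was at 16.7, 17.6, 15.3 and 16.1 TPM in the 4 W/F livers on vehicle. As deposited all 4 lay above every other library of the series, while after rescaling replicate 3, at 12.2 TPM, was below F/F chow replicate 1 at 12.9. In W/W on vehicle its levels were 4.65, 5.28, 5.36 and 5.54 TPM, and in F/F on vehicle 7.33, 5.77, 8.29 and 7.31 TPM. As deposited, F/F lay between the other genotypes and overlapped with neither. After rescaling its mean was 5.30 TPM, below W/W at 6.35 with overlapping ranges, and W/F was at 13.7. On chow the order differed: Lrat was at 14.4, 7.75, 12.6 and 11.8 TPM in F/F, and at 7.23, 7.18, 9.59 and 8.78 TPM in W/F. In W/W on chow it was at 6.40, 4.83, 5.50 and 6.35 TPM. The mean over W/F on vehicle, 16.4 ± 0.97 TPM (SD, n = 4), was followed by F/F on chow at 11.6 ± 2.8 and F/F on T0901317 at 9.56 ± 2.1. Below the W/F vehicle group each neighbour in this order overlapped with the next. The whole spread of group means was 3.15-fold, the narrowest among the 10 genes.

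Reln was at 7.81, 5.05, 10.2 and 9.01 TPM in F/F on chow, its highest group mean at 8.01 TPM. It was at 5.76, 9.67, 6.64 and 5.72 TPM in W/F on vehicle and at 5.33, 4.65, 5.64 and 8.002 TPM in F/F on vehicle. These 2 groups overlapped. In W/W the means were 2.38, 2.38 and 2.39 TPM on chow, vehicle and T0901317, with single libraries from 1.45 to 3.03 TPM. The 4 groups with the highest means, all 3 F/F groups and W/F on vehicle, did not overlap with the fifth.

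The receptors for platelet-derived growth factor spread more widely. Pdgfra, which also marks portal and other fibroblasts, ran from a mean of 0.761 ± 0.29 TPM in W/W on chow to 12.0 ± 1.2 TPM (SD, n = 4) when F/F received vehicle, a 15.8-fold span. The F/F vehicle libraries, at 11.1, 12.7, 10.9 and 13.3 TPM, lay above all others. W/F on vehicle was at 6.80, 6.32, 5.54 and 4.41 TPM and F/F on chow at 4.99, 3.35, 4.26 and 5.20 TPM. Pdgfrb, the receptor shared by stellate cells and pericytes, ran from 2.47 ± 0.38 to 32.4 ± 4.3 TPM, a 13.1-fold span between the same 2 groups. Its levels in F/F on vehicle, 26.4, 34.3, 32.4 and 36.4 TPM, overlapped with F/F on T0901317 at 33.1, 26.9, 17.6 and 20.3 TPM. Des, the desmin gene, spanned 5.07-fold, from 2.18 ± 0.39 TPM in W/F on chow to 11.1 ± 2.7 TPM in F/F on vehicle.

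Acta2 encodes alpha smooth muscle actin, the usual sign of a myofibroblast, and Tagln the actin-binding protein transgelin. Both lie on the minus strand, Acta2 at chr19:34241090-34255590 and Tagln at chr9:45929619-45936058 (GRCm38). Acta2 was at 13.5, 13.9, 13.1 and 15.5 TPM in W/F on vehicle and at 4.72, 16.4, 19.7 and 12.1 TPM in F/F on vehicle. Replicate 1 of the latter was lower than every W/F vehicle library and lay within the W/W range. In W/W on vehicle Acta2 was at 2.20, 4.04, 2.15 and 6.67 TPM. The group means of Acta2 spanned 3.72-fold, and each group overlapped with the next in their order. Tagln means spanned 4.33-fold, from 2.73 ± 1.4 TPM in W/W on vehicle to 11.8 ± 4.5 TPM in F/F on vehicle. F/F on T0901317, at 11.7 ± 3.4 TPM, and W/F on vehicle, at 11.1 ± 1.2 TPM, did not differ from it beyond their spread. In GENCODE M21 62.4% of the Tagln exon sequence overlaps Gm48529 on the opposite strand, and whether reads were assigned by strand is not given in the sources used here. Gm48529 was listed at 1.07 to 4.36 TPM, so the Tagln values carry that uncertainty.

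Vim, the intermediate filament vimentin of mesenchymal cells and leukocytes, had a 28.6-fold span of group means. It was at 189, 201, 171 and 206 TPM in F/F on vehicle and at 94.6, 94.8, 109 and 89.3 TPM in W/F on vehicle. Vim lies at chr2:13573927-13582826, Tgfb1 at chr7:25687002-25705077 and Lum at chr10:97565128-97572703, all on the plus strand. In W/W on vehicle Vim was at 8.83, 6.83, 7.88 and 14.4 TPM. These 3 groups of Vim values stood clear of each other. Tgfb1, the main profibrotic cytokine, which many leukocytes also make, was at 25.7 ± 2.0 TPM in F/F on vehicle, 19.96 ± 1.6 in W/F on vehicle and 3.10 ± 0.19 in W/W on vehicle. Lum, the collagen-binding proteoglycan lumican, had the widest span of the 10 genes, 49.1-fold. It was at 168, 217, 184 and 259 TPM in F/F on vehicle and at 104, 78.9, 72.3 and 78.1 TPM in W/F on vehicle. In W/W on vehicle it was at 4.72, 5.85, 6.02 and 7.34 TPM. On chow, F/F already had Lum at 79.2, 35.5, 74.4 and 84.0 TPM, where W/F had 7.51, 5.11, 6.87 and 4.94 TPM.

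The first question is how the genotypes differ before the MASH diet. On chow, 9 of the 10 genes were called higher in F/F than in W/W, where 43% of the 16638 genes tested were called higher. Their median was 1.28 on the log2 scale, and that of every gene tested 0.29. After rescaling the same 9 were called, and these medians were 1.03 and 0.06. As deposited, single genes moved as follows. Lum rose by 3.67 ± 0.24 (SE) on the log2 scale, Pdgfrb by 2.02 ± 0.21 and Vim by 1.97 ± 0.30. Lrat and Reln also rose, by 0.88 ± 0.15 and 1.40 ± 0.19. Acta2 was the exception at 0.41 ± 0.37 (adjusted p = 0.371). F/F against W/F on chow gave a like count, 9 higher against a background of 37.9%, with Acta2 again not called at 0.83 (adjusted p = 0.067). Without F/F chow replicate 2 or W/F chow replicate 3 Acta2 was called, at 1.07 and 1.08. The Lrat value in that comparison, 0.44 (adjusted p = 0.0164), was 0.19 after rescaling (adjusted p = 0.288), and it was not called without F/F chow replicate 1 or 3 or W/F chow replicate 1 or 2. None of the 10 genes was called between W/F and W/W on chow by limma, where 0.487% of all genes were called in either direction. At an unadjusted p under 0.05, 2 of the 10 passed, Lrat at 0.44 and Reln at 0.43, both higher in W/F. The share of all genes passing at that unadjusted level was not counted. The 4 and 4 Lrat values did not overlap. The fit on recovered reads called none.

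On the MASH diet with vehicle all 10 genes were called higher in F/F than in W/W, and 69.3% of all genes tested were too. The members' median was 2.29 against 0.70 for all genes. Lum rose by 4.89 ± 0.24 on the log2 scale (34.6-fold in mean TPM), and by 4.20 after rescaling. Vim rose by 4.24 ± 0.30 (3.54 after rescaling) and Pdgfrb by 2.92 ± 0.21. Lrat was the smallest at 0.39 ± 0.15 (adjusted p = 0.0163), and its sign turned to -0.23 after rescaling (adjusted p = 0.125). On recovered reads it was 0.26 (adjusted p = 0.175), and it was not called without F/F vehicle replicate 3 or without W/W vehicle replicate 1. The other 9 were called under both scalings. In W/F against W/W on vehicle all 10 were called higher, with a background of 61.6%, and all 10 remained so after rescaling. Here Lrat rose by 1.49 ± 0.15 and Reln by 1.23 ± 0.19, while Acta2 rose by 1.75 ± 0.37 and Lum by 3.59 ± 0.24.

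Both mutant genotypes were then set against each other on vehicle. Lrat fell in F/F relative to W/F by 1.10 ± 0.15 on the log2 scale (2.29-fold lower in mean TPM), and it was the only member called lower, where 2.3% of all genes were. Rescaling gave -1.23 and recovered reads -1.22, both called. Called higher were 5 of the 10, with 19% of all genes: Lum at 1.30, Vim at 0.98, Pdgfra at 0.95, Pdgfrb at 0.70 and Des at 0.66. After rescaling Pdgfra at 0.77 and Lum at 1.12 were still called. Des was not called without F/F vehicle replicate 3 (0.52), nor Vim without replicate 4 of either group (0.94). The contractile pair showed no detected difference, with Acta2 at -0.22 (95% interval -0.97 to 0.52) and Tagln at 0.02 (-0.55 to 0.58). Without F/F vehicle replicate 1 Acta2 was at 0.16, also not called. Reln was at -0.20 (-0.58 to 0.18).

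With T0901317 little difference between W/F and W/W was detected. None of the 10 genes was called between them by limma, against 9.88% of all genes in either direction. At an unadjusted p under 0.05, for which the share of all genes was not counted, 1 passed. That gene was Pdgfra at 0.42 (adjusted p = 0.0962), which was called at 0.46 after rescaling and at 0.91 on recovered reads. Lrat differed by -0.06 (95% interval -0.36 to 0.23) and Pdgfrb by 0.02 (-0.40 to 0.44). F/F stayed apart. Against W/W on T0901317, 9 of the 10 genes were called higher in F/F with a background of 56.3%, and against W/F all 10 were with a background of 58.5%. Lum led both comparisons, at 3.32 ± 0.24 and 3.10 ± 0.24. Lrat was at 0.41 and 0.47 as deposited and at 0.03 and 0.08 after rescaling, which was not called, and the first was not called without F/F T0901317 replicate 4 (0.28). Acta2 was called against W/F at 1.24 ± 0.37 and not against W/W at 0.53 (adjusted p = 0.209).

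**Figure D2:**
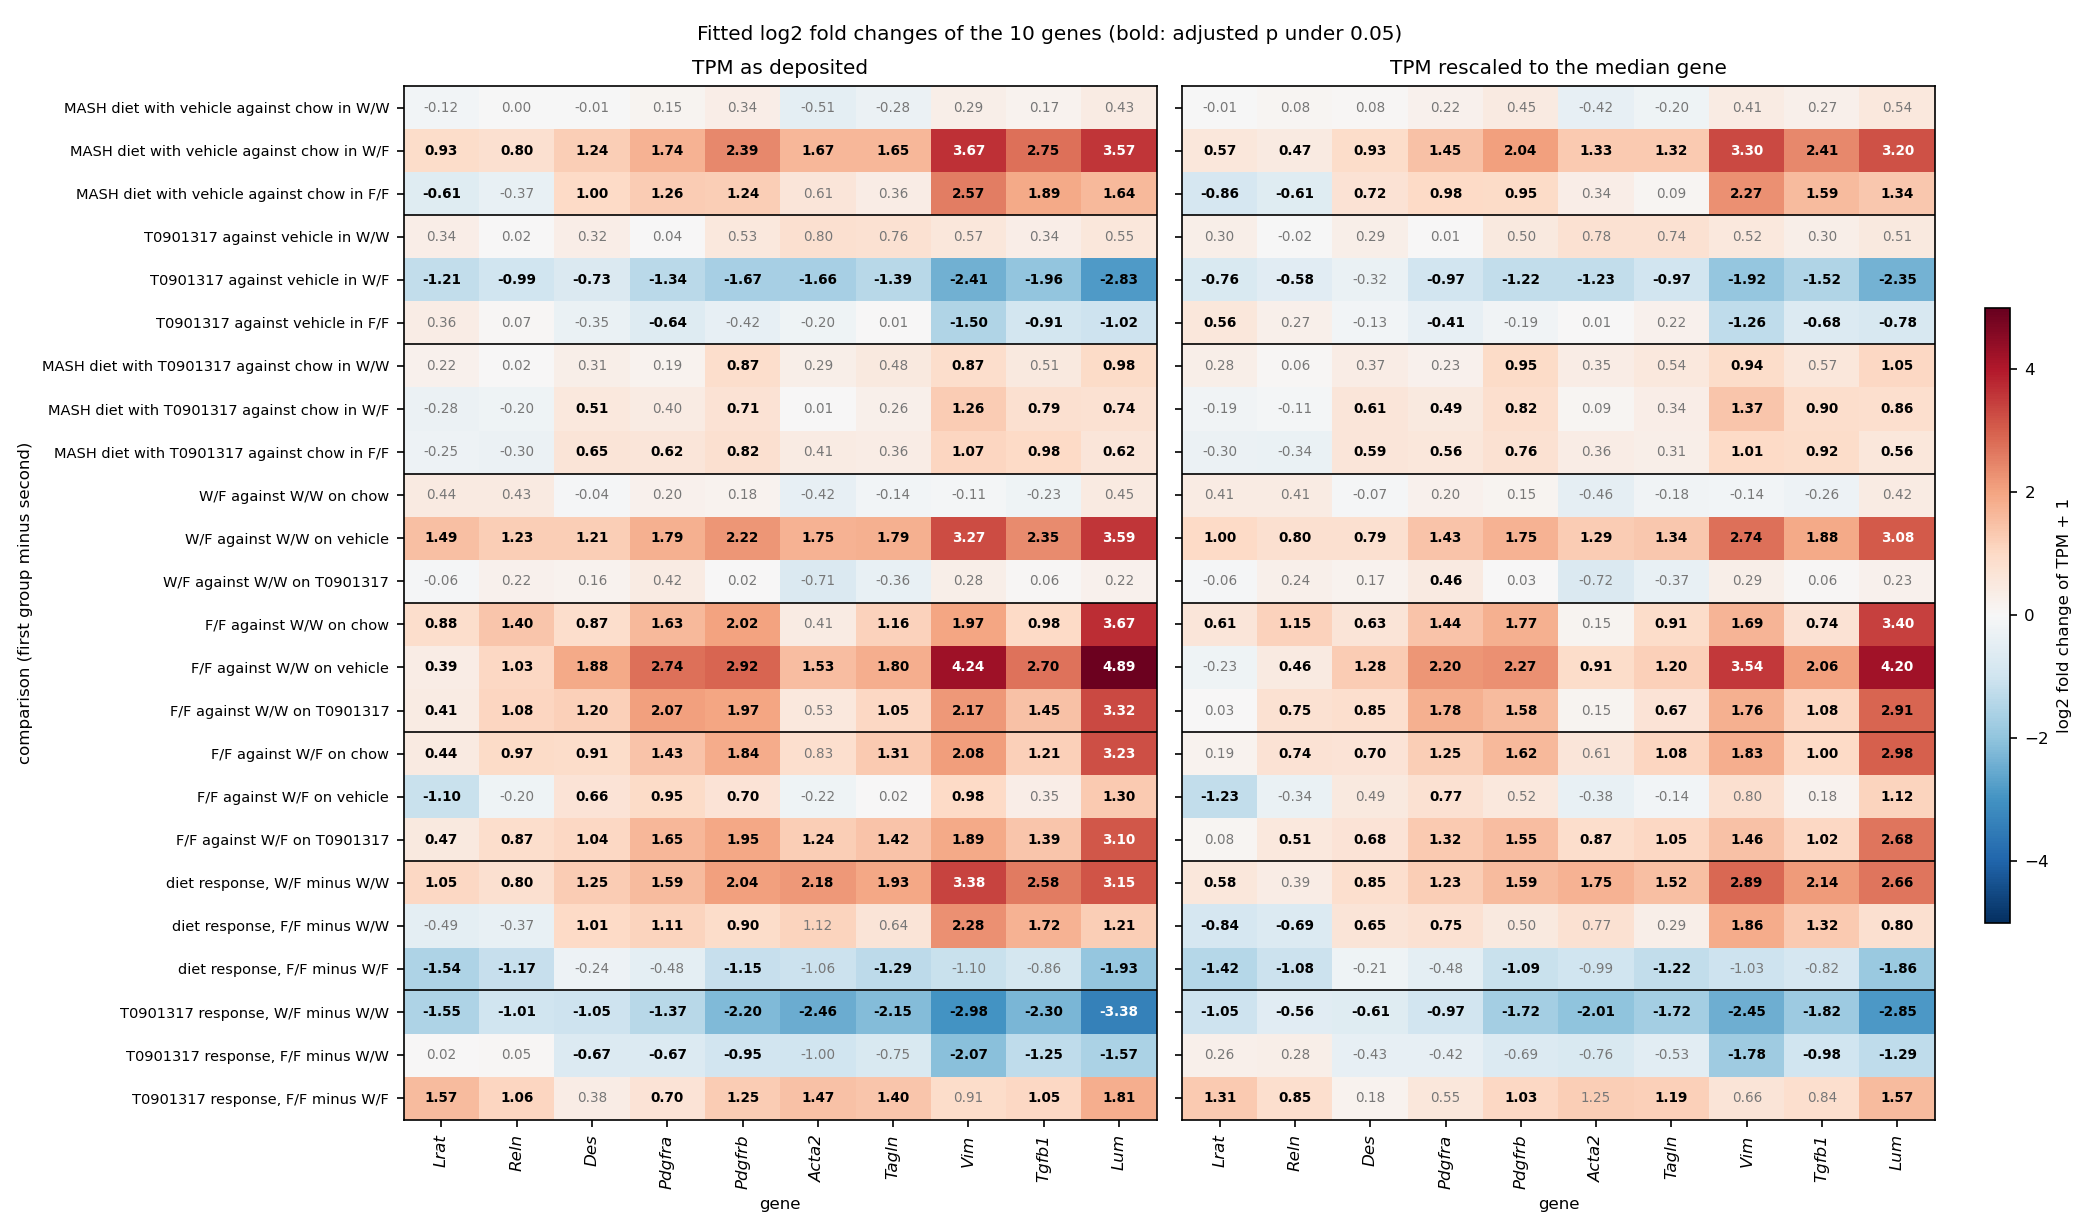
Fitted log2 fold changes of TPM + 1 for the 10 genes (columns) in 24 comparisons (rows), from TPM as deposited on the left and rescaled on the right, with adjusted p under 0.05 in bold. The F/F against W/W row on vehicle runs from 0.39 for Lrat to 4.89 for Lum as deposited, and Lrat turns to -0.23 when rescaled.

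The diet comparison sets vehicle on the MASH diet against chow in each genotype, so it holds diet, gavage and cohort together. In W/W none of the 10 genes was called between vehicle and chow by limma, 12.9% of all genes were called in either direction, none of the 10 passed an unadjusted p under 0.05, and the fit on recovered reads called none. The largest fitted values there were -0.51 for Acta2 (95% interval -1.25 to 0.24) and 0.43 for Lum (-0.07 to 0.92). In W/F all 10 genes rose on the diet, with a background of 52.4%. Vim rose by 3.67 ± 0.30, Lum by 3.57 ± 0.24 and Tgfb1 by 2.75 ± 0.25, while Reln rose by 0.80 ± 0.19 and Lrat by 0.93 ± 0.15. All 10 calls held after rescaling.

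In F/F, 7 of the 10 genes were called between vehicle and chow. Lrat fell by 0.61 ± 0.15 on the log2 scale (adjusted p = 0.000722) and was the only member called lower, where 9.27% of all genes were. Rescaling gave -0.86 for Lrat and -0.61 for Reln, both called, whereas Reln as deposited was at -0.37 (adjusted p = 0.0917). Of the 10, 6 rose, against 46.5% of all genes: Vim by 2.57 ± 0.30, Tgfb1 by 1.89 ± 0.25, Lum by 1.64 ± 0.24, Pdgfra by 1.26 ± 0.16, Pdgfrb by 1.24 ± 0.21 and Des by 1.00 ± 0.18. Acta2 at 0.61 and Tagln at 0.36 were not called. Acta2 was called at 1.00 without F/F vehicle replicate 1 and at 0.89 without F/F chow replicate 4. Reln was called at -0.55 without F/F chow replicate 2 and at -0.51 without F/F vehicle replicate 4.

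The responses themselves were compared between genotypes by interaction terms. The diet response was greater in W/F than in W/W for all 10 genes, with a background of 49.5%, from 0.80 for Reln to 3.38 for Vim. For F/F minus W/W it was greater for 6 genes, with a background of 41.5%: Vim at 2.28, Tgfb1 at 1.72, Lum at 1.21, Pdgfra at 1.11, Des at 1.01 and Pdgfrb at 0.90. Pdgfrb was not called after rescaling or on recovered reads, nor was Lum at 1.06 on recovered reads. Lrat at -0.49 (adjusted p = 0.0519) and Reln at -0.37 were called lower after rescaling, at -0.84 and -0.69. Acta2 at 1.12 was called without F/F vehicle replicate 1, at 1.51. For F/F minus W/F the response was lower for 5 genes, where 5.49% of all genes were: Lum at -1.93, Lrat at -1.54, Tagln at -1.29, Reln at -1.17 and Pdgfrb at -1.15. The same 5 were called after rescaling, and Tagln lost its call without any 1 of 14 libraries (adjusted p from 0.050 to 0.115).

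T0901317 was set against vehicle within each genotype on the MASH diet. In W/F all 10 genes fell, where 59.3% of all genes did. The members' median was -1.53, against -0.49 over all genes. Lum fell by 2.83 ± 0.24 on the log2 scale, Vim by 2.41 ± 0.30 and Tgfb1 by 1.96 ± 0.25. After rescaling Lum was at -2.35 and Vim at -1.92. Lrat fell too, by 1.21 ± 0.15, and Reln by 0.99 ± 0.19. Des, which fell by 0.73 as deposited, was at -0.32 after rescaling and not called. Without replicate 2 of the T0901317 group, in which Vim was at 50.01 TPM against 12.9, 11.55 and 11.7 in the others and 12 macrophage markers summed to 1449 TPM against 203 to 337, all 10 calls held and Vim was at -2.90. This comparison and the diet comparison in W/F share the vehicle libraries.

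In F/F, 4 of the 10 genes fell with T0901317, with a background of 31.2%: Vim at -1.50 ± 0.30, Lum at -1.02 ± 0.24, Tgfb1 at -0.91 ± 0.25 and Pdgfra at -0.64 ± 0.16. The same 4 were called after rescaling, and Tgfb1 was not called without F/F T0901317 replicate 3. Acta2 at -0.20 (95% interval -0.95 to 0.55) and Tagln at 0.01 (-0.56 to 0.57) were not called. Lrat was at 0.36 (adjusted p = 0.0538). It was called higher after rescaling, at 0.56, on recovered reads, at 0.48, and without any 1 of 5 libraries. In W/W none of the 10 was called by limma or on recovered reads, with a background of 10.8% in either direction. At an unadjusted p under 0.05, for which the share of all genes was not counted, 5 passed, all higher with T0901317. These were Acta2 at 0.80, Tagln at 0.76, Lum at 0.55, Pdgfrb at 0.53 and Lrat at 0.34. Without W/W T0901317 replicate 2, which held the highest value of each of the 10 genes in that group, they were at 0.59, 0.64, 0.38, 0.32 and 0.26. Without W/W vehicle replicate 4 Tagln at 0.96 and Pdgfrb at 0.67 were called.

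The T0901317 responses were compared in the same way, and these terms share the vehicle libraries with those for the diet. For W/F minus W/W the response was lower for all 10 genes, with a background of 53.2%, from -1.01 for Reln to -3.38 for Lum. For F/F minus W/W it was lower for 6, with a background of 27.2%, namely Vim at -2.07, Lum at -1.57, Tgfb1 at -1.25, Pdgfrb at -0.95, Des at -0.67 and Pdgfra at -0.67. After rescaling 3 of these, Vim, Tgfb1 and Lum, were still called. For F/F minus W/F it was higher, that is the fall was smaller, for 8 genes, with a background of 17.6%. Lum at 1.81, Lrat at 1.57, Tagln at 1.40, Pdgfrb at 1.25 and Reln at 1.06 were called under both scalings. Acta2 at 1.47, Tgfb1 at 1.05 and Pdgfra at 0.70 were not called after rescaling, nor without any 1 of 12, 11 and 8 libraries. Vim at 0.91 (adjusted p = 0.131) was called without W/F T0901317 replicate 2, at 1.40 (adjusted p = 0.00166).

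The T0901317 livers were also set against chow, and these comparisons share the chow libraries with the diet comparisons. In W/W, 3 of the 10 genes were called higher, Lum at 0.98, Pdgfrb at 0.87 and Vim at 0.87, with a background of 10.3%. Vim was not called without W/W T0901317 replicate 2 (0.64, adjusted p = 0.176) or any 1 of 4 other libraries, and on recovered reads Pdgfrb alone was called. In W/F, 5 were called higher, Vim at 1.26, Tgfb1 at 0.79, Lum at 0.74, Pdgfrb at 0.71 and Des at 0.51, with a background of 11%. Without W/F T0901317 replicate 2 or without W/F chow replicate 2, the calls left were Vim, at 0.77 and 1.25, and Pdgfrb, at 0.69 and 0.74, and without W/F chow replicate 4 they were Vim, Tgfb1 and Pdgfrb. With only the libraries compared in the fit, Vim (adjusted p = 0.0861) and Tgfb1 (adjusted p = 0.149) were not called in W/F, nor was Vim in W/W (adjusted p = 0.0693). In F/F, 6 were called higher, led by Vim at 1.07 and Tgfb1 at 0.98, with a background of 24.6%. Lum at 0.62 lost its call there without any 1 of 4 libraries, and Lum and Des did so with only the libraries compared (adjusted p = 0.167 and 0.057). Lrat and Reln were not called in any genotype, at -0.25 and -0.30 in F/F, but without F/F chow replicate 2 both were, at -0.42 and -0.48.

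Quiescent and activated genes were then compared within each library, as the mean log2(TPM + 1) of Acta2, Tagln and Vim minus that of Lrat and Reln. No test was made on this difference, since its members were chosen with results known. On vehicle W/W had 0.25 ± 0.43, W/F 1.16 ± 0.23 and F/F 2.06 ± 0.45 (SD, n = 4). The W/W libraries were at 0.35, 0.12, -0.24 and 0.78, those of W/F at 1.28, 0.82, 1.24 and 1.30 and those of F/F at 1.49, 2.47, 2.37 and 1.93. The 3 genotypes did not overlap. They reached these values differently: the mean of Lrat and Reln was 2.18, 3.54 and 2.89 in W/W, W/F and F/F. The mean of the 3 activated genes was 2.43, 4.70 and 4.96. Between W/F and F/F on vehicle, Vim, which leukocytes also carry, was the only activated gene of the 3 called higher. After rescaling Vim was at 0.80 and not called (adjusted p = 0.0702). Acta2 and Tagln showed no detected difference there. Of the quiescent pair Lrat was called lower and Reln was not called. The step from W/F to F/F thus rested mainly on Vim and Lrat, and not on the contractile genes. On chow W/W had 0.35 ± 0.15, W/F -0.31 ± 0.17 and F/F 0.40 ± 0.29, so F/F on chow lay at the W/W value. Both set means were higher in F/F than in W/W on chow, at 3.38 against 2.24 for the quiescent and 3.78 against 2.60 for the activated genes. Acta2 by itself was not called between these chow groups. With T0901317 W/W had 0.78 ± 0.24, W/F 0.44 ± 0.63 and F/F 1.29 ± 0.38. The W/F value holds 1 library at 1.38, replicate 2, and 3 libraries between 0.03 and 0.19.

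**Figure D3:**
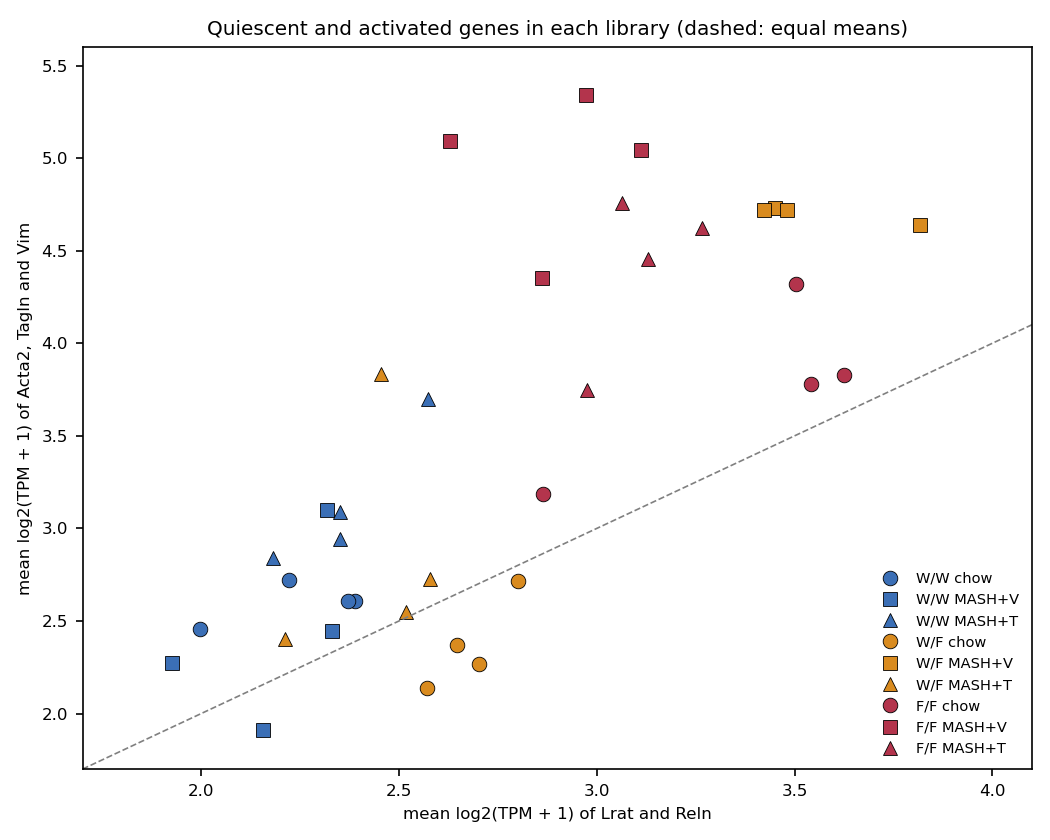
Mean log2(TPM + 1) of Acta2, Tagln and Vim against that of Lrat and Reln, 1 point per library, coloured by genotype with a symbol for each treatment (V, vehicle; T, T0901317). The F/F vehicle libraries lie farthest above the dashed line of equal means, at a mean difference of 2.06, and the W/F chow libraries lie below it at -0.31.

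A ratio of 2 genes in the same library does not depend on the scaling. The log2 ratio of Vim to Lrat rose across the vehicle groups from 0.81 ± 0.45 in W/W to 2.56 ± 0.18 in W/F and 4.75 ± 0.31 in F/F (SD, n = 4), without overlap. Acta2 to Lrat was less distinct, at -0.63 ± 0.72, -0.23 ± 0.13 and 0.71 ± 0.95. Its F/F vehicle libraries were at -0.63, 1.51, 1.25 and 0.73, so replicate 1 fell below all 4 W/F libraries. Tagln to Lrat was at -1.13 ± 0.97, -0.57 ± 0.19 and 0.65 ± 0.52, and its lowest F/F vehicle library, at -0.10, was above the highest W/F vehicle library at -0.41. Mean Tagln was 11.1 TPM in W/F and 11.8 in F/F on vehicle, whereas mean Lrat was 16.4 and 7.17 TPM. The gap between W/F and F/F in this ratio thus came mainly from Lrat, and no ratio to Reln was taken. In F/F, T0901317 livers had a Vim to Lrat ratio of 2.83 ± 0.57, between F/F on chow at 1.46 ± 0.31 and F/F on vehicle, with no overlap between the 3 groups.

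**Figure D4:**
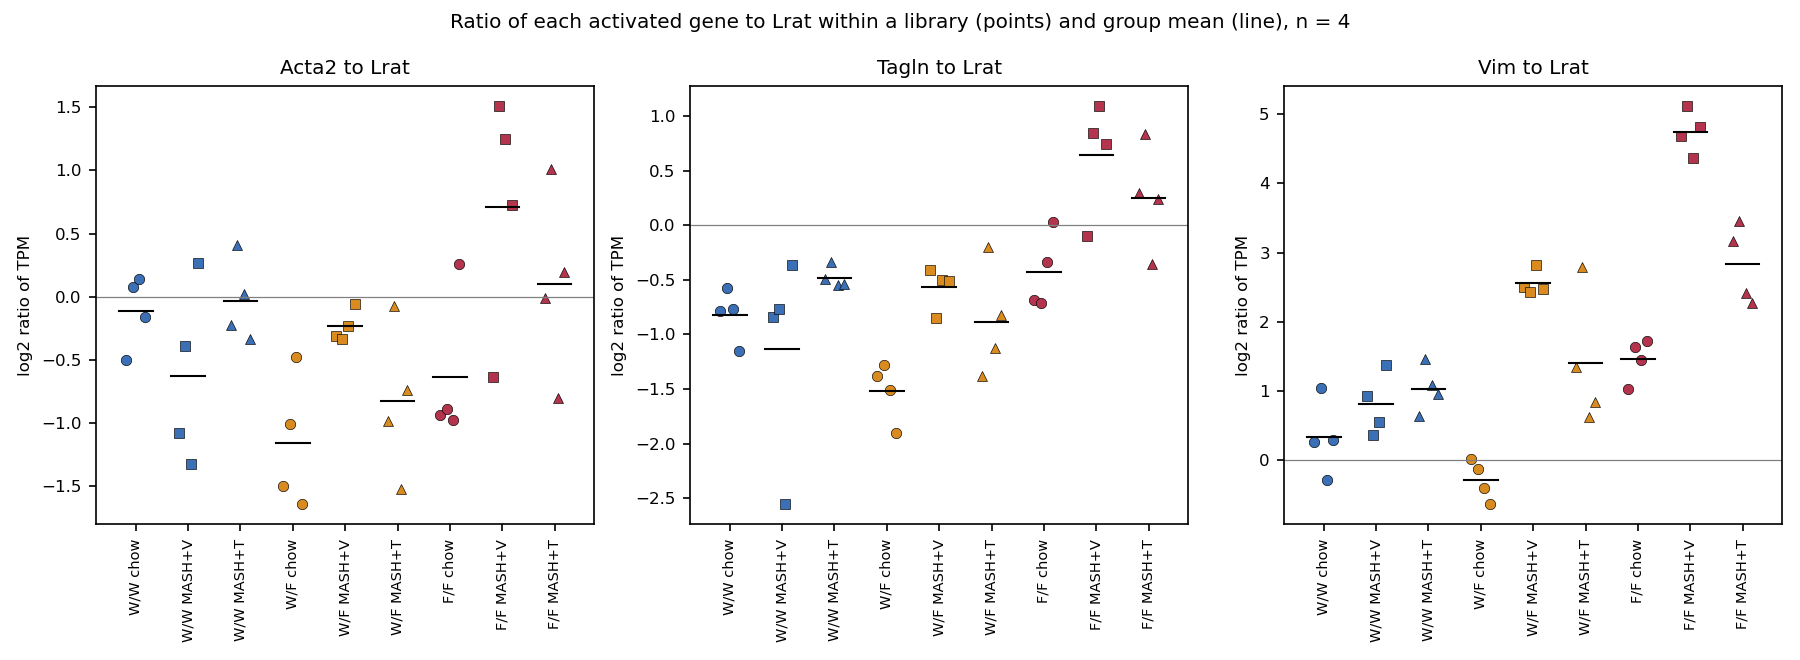
Log2 ratio of Acta2, Tagln and Vim to Lrat in every library (points), with the mean of 4 libraries as a line, by genotype and treatment (V, vehicle; T, T0901317). Vim to Lrat separates the vehicle groups of the 3 genotypes at means of 0.81, 2.56 and 4.75, whereas Acta2 to Lrat overlaps between W/F and F/F.

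Across the 36 libraries the members did not all follow each other. As a description, since libraries share their groups and total, Pearson's r of log2(TPM + 1) was 0.99 between Pdgfra and Lum and 0.98 between Vim and Tgfb1. Lrat was the least tied, with r between 0.50 (Des) and 0.75 (Reln), and after rescaling its r with Des was 0.08 and with Reln 0.51. Reln had a higher r with Lum (0.85), Pdgfra (0.83), Pdgfrb (0.81) and Tagln (0.79) than with Lrat. Its r was 0.73 with Vim and 0.63 with Acta2. After rescaling Reln had r of 0.72 with Lum and 0.69 with Pdgfra. Outside the members, the 3 genes most like Lrat were Eda2r, a receptor of the TNF family (r = 0.84), Gm42047 (0.80) and Ugdh, which makes UDP-glucuronate (0.78). Eda2r was at 1.97 TPM in W/F on vehicle, 1.61 in F/F on chow and 0.793 in F/F on vehicle. Most like Reln were Abcc9, a potassium channel subunit of pericytes and smooth muscle (0.93), Ddr2, a collagen receptor (0.92), and Fam171b (0.91). For Tagln they were Col3a1, a fibrillar collagen (0.93), Pam (0.93) and Acot9 (0.93). For Acta2 they were M6pr (0.86), Nap1l4 (0.86) and Lacc1 (0.85), and r with Nap1l4 was 0.21 after rescaling.

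Lists of related genes are given by their counts for F/F against W/W, both on vehicle. The median of all genes was 0.70 as deposited, with 69.3% of all genes called higher, and 0.14 after rescaling. The shares of all genes called lower, or called after rescaling, are not given here. Counts of fallen genes and counts after rescaling therefore stand without a background. Among other stellate cell identity genes, 15 of 19 tested rose and 2 fell, with a median of 1.42 (12 and 4 after rescaling). Cygb, the stellate cell globin, rose by 3.44. Angptl6 fell by 1.73 and Vipr1, a neuropeptide receptor, by 1.45. Contractile and cytoskeletal genes rose in 13 of 15 cases with a median of 1.31 (10 after rescaling). Tagln2 rose by 4.21 and Flna, which encodes filamin A, by 3.30, while the tropomyosin gene Tpm2 fell by 1.45. Cnn3 rose by 0.54 as deposited and was at -0.18 after rescaling.

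In the same comparison, with its background of 69.3% as deposited, matrix genes of myofibroblasts rose in 15 of 18 cases with none lower. Their median was 2.36, and 15 were higher and 3 lower after rescaling. They were led by the calcium-binding S100a6 at 4.46 and Thbs1, encoding thrombospondin 1, at 3.70. The smallest called values were Thy1 at 1.24 and Fbln2 at 1.26. Of the TGF-beta pathway all 24 genes tested rose, with a median of 1.71, and 21 after rescaling. The matricellular Ctgf rose by 3.77, whereas Ltbp4 rose by 0.77. Eng, a TGF-beta co-receptor, rose by 0.56 as deposited and was at -0.15 after rescaling. All 4 PDGF ligand genes and Pdgfrl rose, Pdgfb most at 3.49 and then Pdgfd at 2.65, Pdgfc at 2.29 and Pdgfrl at 1.65. Vitamin A handling genes were divided, with 7 of 13 higher, 2 lower and a median of 0.45, and 3 higher, 6 lower and -0.24 after rescaling. Aldh1a2, which makes retinoic acid, rose by 2.24 and the receptor Rarg by 2.19. Rbp4, the plasma retinol carrier made by hepatocytes, fell by 0.69 and Aldh1a1 by 0.47.

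The same lists were counted for T0901317 against vehicle in both mutants. In W/F, 21 of 24 TGF-beta genes, 16 of 18 matrix genes, 13 of 15 contractile genes and 15 of 19 stellate identity genes fell with T0901317, where 59.3% of all genes did. In F/F the counts of fallen genes were 13, 10, 5 and 3, against 31.2% of all genes. Stellate identity genes in F/F had a median of -0.06, where all genes had -0.24. The difference between the genotypes was not tested for these lists.

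**Figure D5:**
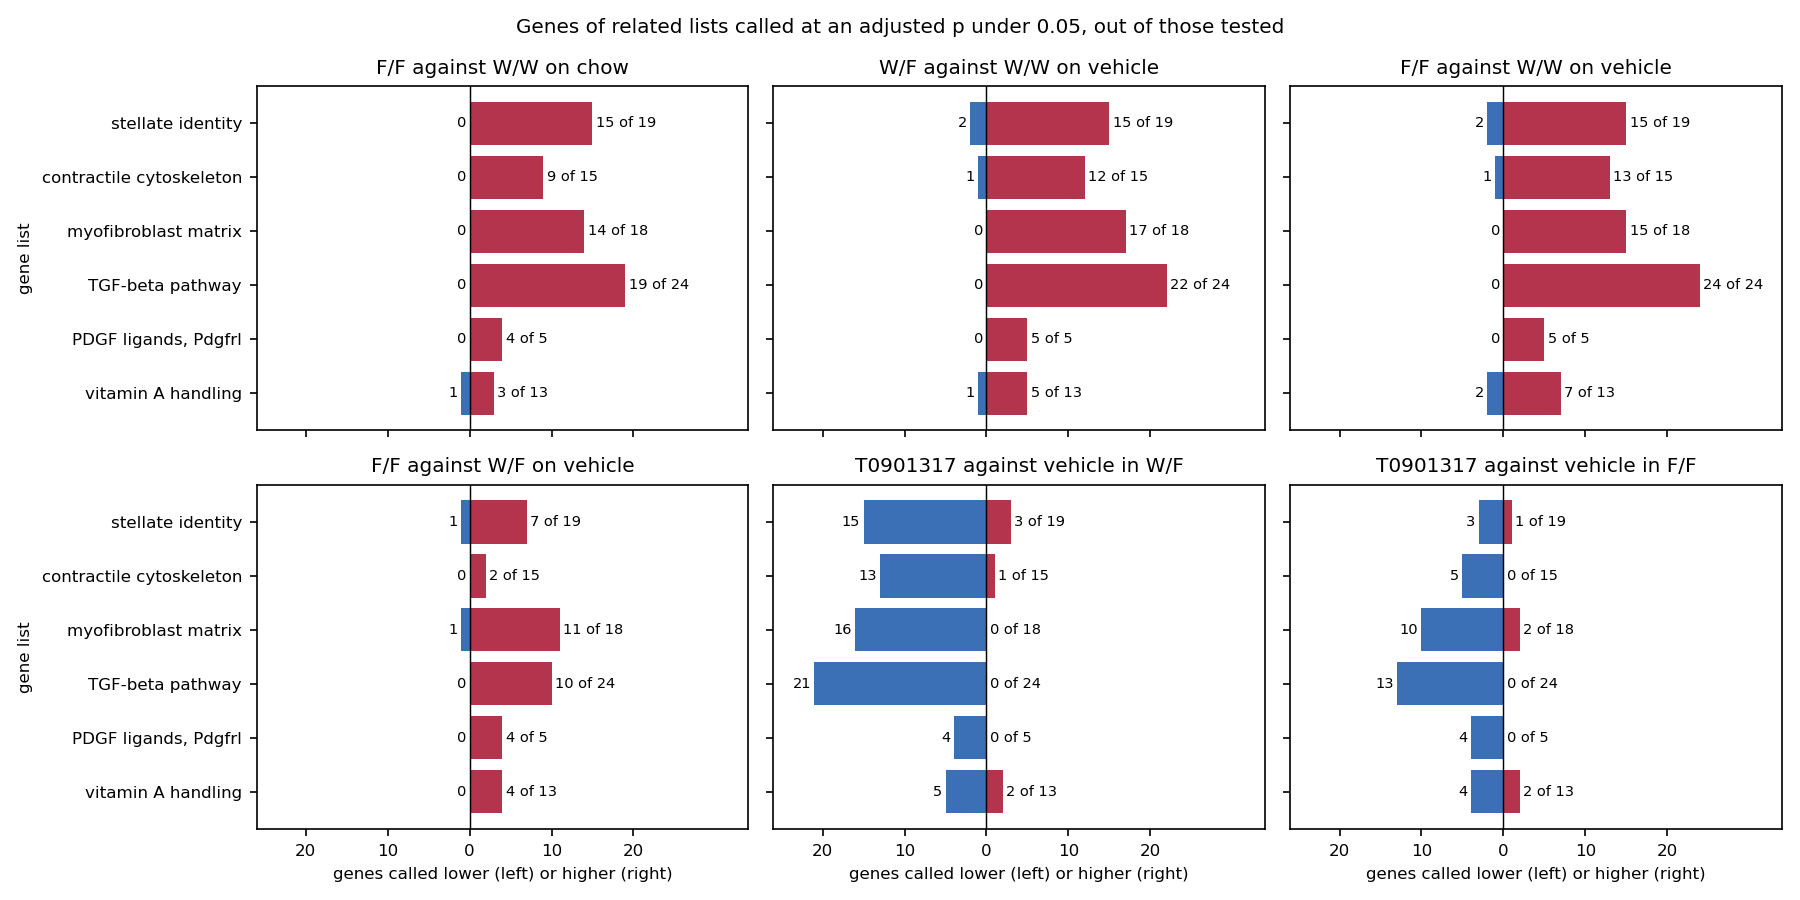
Number of genes called lower (left, blue) or higher (right, red) at an adjusted p under 0.05 in 6 lists of related genes, for 6 comparisons, with the number tested. All 24 TGF-beta genes are higher in F/F than in W/W on vehicle (21 after rescaling), and 21 of them are lower with T0901317 in W/F against 13 in F/F.

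Markers of other cell types moved in the same comparisons, and their part in the results was not tested. The sum of 12 macrophage markers was 265 to 440 TPM in W/W on vehicle, 3209 to 4321 in W/F and 3633 to 4730 in F/F. Lyz2 held most of this sum in both mutants, at means of 91.3, 2414 and 3228 TPM in W/W, W/F and F/F. Within that list Gpnmb rose while Clec4f, a marker of resident Kupffer cells, was at 72.3, 45.0 and 0.354 TPM in W/W, W/F and F/F on vehicle. Cd5l was at 80.5, 263 and 1.58 TPM and Vsig4 at 23.9, 33.96 and 1.13 TPM, so both were higher in W/F than in W/W, unlike Clec4f. Marco and Timd4 were also lowest in F/F. Means of Adgre1, Cd68, Csf1r, Itgam and Trem2 were higher in both mutants than in W/W. The 10 cholangiocyte markers summed to 72.7 to 82.5, 1198 to 1636 and 2986 to 3623 TPM in the same order. The 14 markers of portal fibroblasts and vascular smooth muscle summed to 41.5 to 62.8, 264 to 295 and 471 to 509 TPM. These cells can also carry Acta2, Tagln, Pdgfrb and Des. Gas6 held most of this sum in every group, at means of 33.1, 190 and 297 TPM on vehicle. Of the 11 markers of this list tested, 9 rose and 2 were not called in F/F against W/W, where 69.3% of all genes rose. The smooth muscle myosin gene Myh11 was at 1.00, 1.33 and 0.932 TPM in these groups, Cspg4 at 0.0169, 0.0594 and 0.192 TPM and Gli1 at 0.0409, 0.179 and 0.553 TPM. The list of 7 mesothelial markers summed to 359 to 441, 2064 to 3166 and 1596 to 2235 TPM. Most of it was Krt8, so this sum cannot be read as a measure of mesothelium. Of the low genes in the list, Wt1 was at 0.194, 0.964 and 2.12 TPM and Msln at 0.880, 1.26 and 4.62 TPM. Upk3b went the other way, at 0.838, 0.416 and 0.368 TPM. The 10 lymphocyte and granulocyte markers summed to 5.71 to 14.2, 72.6 to 136 and 130 to 359 TPM, and the 12 endothelial markers to 109 to 123, 92.9 to 123 and 133 to 192 TPM. Hepatocyte markers summed to 85420 to 107606, 67624 to 76762 and 41707 to 47126 TPM. The order of the mesothelial sum was that of Krt8, at 398, 2577 and 1928 TPM in W/W, W/F and F/F, and Wt1 did not share it.

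On chow the cholangiocyte sum was 64.2 to 75.8 TPM in W/W and 748 to 1018 in F/F, the portal and smooth muscle sum 41.3 to 64.4 and 155 to 192, and the macrophage sum 170 to 250 and 495 to 795. With T0901317 the W/F livers had 125 to 294 TPM of cholangiocyte and 70.1 to 93.5 of portal and smooth muscle markers, all below the W/F vehicle libraries, as was the macrophage sum at 203 to 1449. In F/F with T0901317 these sums were 799 to 1766, 241 to 448 and 1511 to 2332 TPM, each below the F/F vehicle range. In W/W with T0901317 the portal and smooth muscle sum was 88.5 to 143 TPM and the cholangiocyte sum 146 to 239, both above the W/W vehicle range, and the macrophage sum, at 279 to 591, overlapped with it.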

How the data were processed

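Bulk polyA RNA-seq of 36 mouse livers was used, 4 libraries in each of 9 groups of genotype and treatment. The deposited values are TPM per gene. Per the submitters' processing notes, tools named are Trimmomatic 0.36, STAR 2.5.2b and featureCounts of Subread 1.5.2, with GRCm38 (mm10); annotation version and strand setting are not given in the sources used here. TPM keeps no depth, but low values fell on steps of single reads, from which reads were recovered (93.7% to 95.6% of low values within 0.1 of a whole number, where chance gives 20%).

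A linear model of log2(TPM + 1) over all 9 groups was fitted by limma-trend (limma 3.58.1, R 4.3.3), for genes of at least 1 TPM in at least 4 libraries, with Benjamini-Hochberg adjustment over 16638 genes in each of 24 contrasts. Fold changes are on that scale, which understates changes of low genes. The fit was tested on simulated data. The labels do not say that replicates are separate litters or batches, and p-values measure the spread between these samples. Alternatives were rescaling by the median of ratios over 10269 genes, a pseudocount of 0.1, a filter of 5 TPM, no filter, a replicate block, array quality weights, only the libraries compared and each library left out; recovered reads with limma-voom were chosen after seeing the data.

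The members and lists were chosen with earlier results of these data known. From each list the 2 called genes with the largest and the 2 with the smallest change between F/F and W/W on vehicle are named, of at least 1 TPM in either group, and for Lrat, Reln, Acta2 and Tagln the 3 genes of highest r. Some genes that this rule names are not reported here. Lists were stellate identity, contractile cytoskeleton, myofibroblast matrix, TGF-beta, PDGF and vitamin A handling, with markers of hepatocytes, macrophages, endothelium, cholangiocytes, portal fibroblasts and smooth muscle, mesothelium, and lymphocytes and granulocytes. Myh11, Cspg4, Gli1 and Wt1, and the libraries named as left out, were chosen after their values were seen. Promoter windows are from RefSeq, GRCm38.p6.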

Additional observations from a re-analysis of the deposited data

Results flagged for a closer look

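In 8 of 90 groups of 4 libraries, 1 library stood far from the other 3; chance gives about 1 in 20 groups. Of these, 5 were W/W T0901317 replicate 2, with Lrat at 8.33 TPM, Des at 4.98, Pdgfrb at 8.71, Tagln at 6.58 and Tgfb1 at 6.84, each the highest of its group. The others were Vim at 50.01 TPM in W/F T0901317 replicate 2, Pdgfrb at 23.3 TPM in W/F vehicle replicate 1 and Reln at 1.45 TPM in W/W chow replicate 3, the lowest of its group.

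The other results listed here are differences in response between genotypes, tested as interaction terms in limma, on the log2 scale. The diet response of W/F exceeded that of W/W by 1.05 for Lrat, 0.80 for Reln, 1.25 for Des, 1.59 for Pdgfra, 2.04 for Pdgfrb, 2.18 for Acta2, 1.93 for Tagln, 3.38 for Vim, 2.58 for Tgfb1 and 3.15 for Lum. That of F/F exceeded W/W by 1.01 for Des, 1.11 for Pdgfra, 0.90 for Pdgfrb, 2.28 for Vim, 1.72 for Tgfb1 and 1.21 for Lum. F/F minus W/F was -1.54 for Lrat, -1.17 for Reln, -1.15 for Pdgfrb, -1.29 for Tagln and -1.93 for Lum.

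The T0901317 response of W/F minus W/W was -1.55 for Lrat, -1.01 for Reln, -1.05 for Des, -1.37 for Pdgfra, -2.20 for Pdgfrb, -2.46 for Acta2, -2.15 for Tagln, -2.98 for Vim, -2.30 for Tgfb1 and -3.38 for Lum. F/F minus W/W was -0.67 for Des, -0.67 for Pdgfra, -0.95 for Pdgfrb, -2.07 for Vim, -1.25 for Tgfb1 and -1.57 for Lum. F/F minus W/F was 1.57 for Lrat, 1.06 for Reln, 0.70 for Pdgfra, 1.25 for Pdgfrb, 1.47 for Acta2, 1.40 for Tagln, 1.05 for Tgfb1 and 1.81 for Lum.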

How the results depend on the processing

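Across 10 genes and 24 comparisons, 240 values were refitted. Rescaling left 218 with the same direction and call, added 6 calls, removed 15 and reversed 1, Lrat in F/F against W/W on vehicle, which became -0.23; the cause was not tested. Rescaling changed the number of called members to 1 (0 as deposited) between W/F and W/W on T0901317, to 3 (from 5 higher and 1 lower) between F/F and W/F on vehicle, from 6 to 3 for the T0901317 response of F/F minus W/W and from 8 to 5 for that of F/F minus W/F. The last was also 5 without a filter and 5 with only the libraries compared. Recovered reads with voom, chosen after seeing the data, gave 1 for T0901317 against chow in W/W, 1 for W/F against W/W on T0901317 and 3 for the T0901317 response of F/F minus W/W. Array quality weights gave 1 for T0901317 against vehicle in W/W and 1 for W/F against W/W on T0901317. With each library left out, the counts ran from 0 to 2 for T0901317 against vehicle in W/W, from 2 to 6 for T0901317 against chow in W/F and from 5 to 9 for the T0901317 response of F/F minus W/F. Of 8640 values with 1 library left out, 8502 kept direction and call. Residuals of same-numbered libraries correlated at a median of 0.013 (-0.174 to 0.297), with 18 of 144 pairs above 0.1. Of 36 libraries, 11 correlated best with their own number. No general pairing by replicate number was seen, but such a median cannot show whether some groups share a batch. With the replicate block no count of called members moved by more than 1.5 times, and 4 calls changed: Lrat at 0.36 for T0901317 against vehicle in F/F and at -0.49 for the diet response of F/F minus W/W were called, and Lum at 0.62 for T0901317 against chow in F/F and Des at -0.67 for the T0901317 response of F/F minus W/W were not. The lowest libraries of Tagln and Pdgfra held 18 and 29 reads, which limits those values.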
